A study of Caenorhabditis elegans with 6 samples.

Results

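The caenacins are a family of small secreted peptides of *C. elegans*, encoded by the *cnc* genes. They were chosen here by gene symbol, 10 genes in all (*cnc-1* to *cnc-8*, *cnc-10* and *cnc-11*), and matched to the arrays through the sequence names of the probes. Of these 10 genes, 9 had 1 probe each on the arrays, no probe carried the sequence name of *cnc-11*, and 8 were bright enough to be tested, among 18877 named genes on the arrays and 14768 tested. Late L4 larvae of 2 mutant strains were each compared with wild-type N2 larvae. *ets-4(uz1)* lacks most of the coding sequence of the ETS domain and may still make a truncated protein. The *ets-4(ok165)* deletion removes more of the gene, taking out the PNT domain as well as the ETS domain. Each strain is 1 outcrossed deletion line, and all worms were grown at 20 °C on plates with OP50 bacteria after hypochlorite synchronization. Whole worms were used, so a change in the amount of a transcript per cell and a change in the number of cells that make it cannot be told apart.

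Caenacins are known as antimicrobial effectors of the worm epidermis. *cnc-2* is the best studied member and is induced when the fungus *Drechmeria coniospora* infects the epidermis, through the TGF-beta ligand DBL-1 and its receptor SMA-6. A second group of epidermal peptides, encoded around *nlp-29*, responds to the same fungus and to wounding through the p38 kinase PMK-1. ETS-4 is a transcription factor of the ETS family, and the arrays ask how worms with either mutant allele differ from wild type.

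Each strain was hybridized on 3 two-color arrays, with the mutant in Cy5 and wild type in Cy3, and no dyes were swapped. Whether arrays of the same number shared a wild-type extract is not stated in the labels. Without a dye swap, all fold changes against wild type are open to dye bias. A dye effect of a probe that is the same on every array cancels in the difference between the strains. Array numbers 1, 2 and 3 mark the repeats, and arrays with the same number deviated together, so that the number pairs an *ets-4(uz1)* array with an *ets-4(ok165)* array. Between 72.8 and 85.4% of the spots for genes were clearly above background in the mutant channel, and between 68.5 and 72.9% in the wild-type channel. The *ets-4* probe was lower in the mutants on all 6 arrays, with log2 ratios of −3.18, −3.08 and −2.84 in *ets-4(uz1)* and −3.59, −2.80 and −2.72 in *ets-4(ok165)*, and its place relative to the deletions was not determined. Of the markers for epidermis, intestine, pharynx, body wall muscle, neurons and oocytes, all were well above background in both channels of every array. None of them passed the test (limma) in either strain, except the epidermal collagen gene *dpy-7* in *ets-4(uz1)*. An unadjusted p under 0.05 was found for 3 epidermis, 2 muscle, 1 neuron and 1 oocyte marker in *ets-4(uz1)*, against 19.6% of all tested genes. In *ets-4(ok165)* it was found for 1 epidermis and 2 pharynx markers, against 8.14% of all tested genes. The Rank Products test called 1 epidermis marker, in *ets-4(uz1)*. With the array number as a replicate block, 2 epidermis, 2 muscle and 1 neuron marker were higher in *ets-4(uz1)* and 1 intestine marker lower. For a strain against wild type, this fit leaves the spread between repeats out of the error, so its p-values come out too small. That fit called 15.5% of all tested genes in *ets-4(uz1)*. In *ets-4(ok165)* it called 0 markers and 0.332% of all tested genes.

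In *ets-4(uz1)* larvae 3 caenacin genes rose, *cnc-7*, *cnc-2* and *cnc-10*, by 9.1-fold, 7.66-fold and 2.80-fold over wild type. In *ets-4(ok165)* larvae *cnc-10* stood at the wild-type level, and *cnc-2*, *cnc-4* and *cnc-7* averaged below wild type without passing the test. A gene was called changed at an adjusted p under 0.05 from limma, a linear model fitted to all tested genes with Benjamini-Hochberg adjustment. By that rule 3 of the 8 tested members were higher in *ets-4(uz1)* and 0 lower, against 3.53% of all tested genes called in either direction and 2.2% called higher. With normexp and loess the same 3 members were called, and the log2 ratios were 1.96 for *cnc-7*, 2.15 for *cnc-2* and 1.33 for *cnc-10*. The members had a median log2 ratio of 1.30 in *ets-4(uz1)*, against 0.03 over all tested genes. In *ets-4(ok165)* the medians were −0.06 for the members and −0.02 for all genes.

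**Figure D1:**
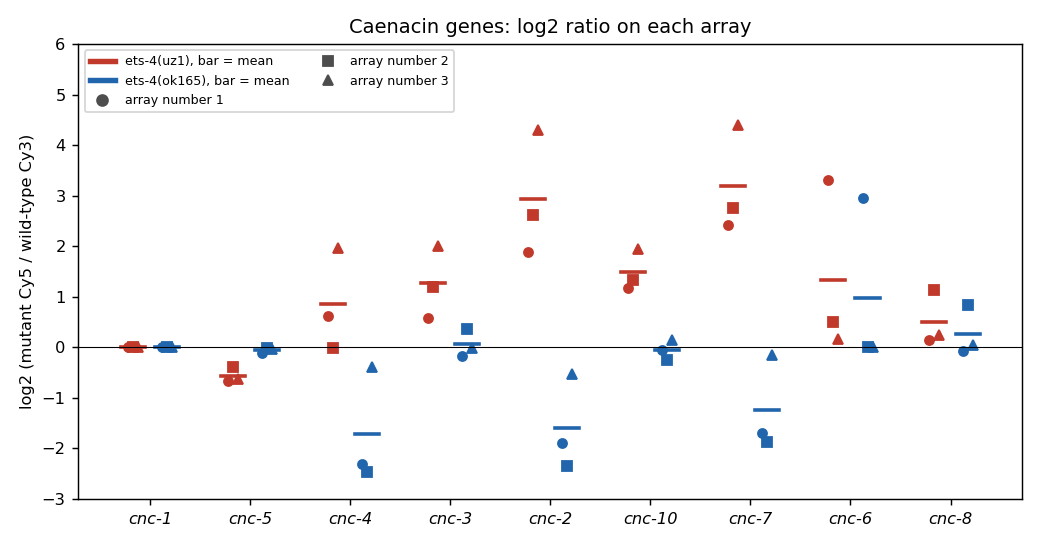
Log2 ratio of mutant (Cy5) over wild type (Cy3) for the 9 caenacin genes on the arrays, *ets-4(uz1)* in red left of *ets-4(ok165)* in blue, with a symbol for each array number and a bar for the mean of 3 arrays. *cnc-2* and *cnc-7* lay above 0 on every *ets-4(uz1)* array and below 0 on every *ets-4(ok165)* array, and *cnc-1* was listed at 0 throughout. On *ets-4(ok165)* array 3 the wild-type signal of *cnc-7* was not well above background.

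*cnc-2* (R09B5.3), a fungus-induced caenacin, had log2 ratios of 1.89, 2.62 and 4.30 on *ets-4(uz1)* arrays 1, 2 and 3. On *ets-4(ok165)* arrays 1, 2 and 3 its log2 ratios were −1.90, −2.35 and −0.52. The strains thus fell on opposite sides of wild type, and array number 3 gave the highest ratio in both. The mean of 2.94 ± 1.24 in *ets-4(uz1)* (SD, n = 3) passed the test (limma, adjusted p = 0.0283), and the mean of −1.59 ± 0.95 in *ets-4(ok165)*, 3.01-fold lower, did not (limma, adjusted p = 0.529). With normexp and loess the *ets-4(ok165)* mean was −0.65, so the size of that fold depends on the background correction.

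*cnc-7* (F53H2.2), which lies elsewhere on chromosome V, followed the same pattern. Its log2 ratios were 2.42, 2.75 and 4.39 on *ets-4(uz1)* arrays 1, 2 and 3, and −1.70, −1.87 and −0.15 on *ets-4(ok165)* arrays 1, 2 and 3. The groups again did not overlap, and array number 3 was again the highest of each strain. The means were 3.19 ± 1.06 in *ets-4(uz1)* (SD, n = 3; limma, adjusted p = 0.0180) and −1.24 ± 0.95 in *ets-4(ok165)* (limma, adjusted p = 0.584). On *ets-4(ok165)* array 3 the wild-type channel of this probe was not well above background, so that ratio is less certain. The *ets-4(ok165)* mean was −0.38 with normexp and loess.

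*cnc-10* (VK10D6R.1), another caenacin gene of chromosome V, had the steadiest rise. Its log2 ratios were 1.18, 1.33 and 1.95 on the *ets-4(uz1)* arrays, against −0.05, −0.26 and 0.14 on the *ets-4(ok165)* arrays. Every *ets-4(uz1)* value exceeded 1, and the *ets-4(ok165)* values scattered around 0. The mean of 1.48 ± 0.41 in *ets-4(uz1)* (SD, n = 3) passed with the smallest p of the family (limma, adjusted p = 0.0154), and that of −0.06 ± 0.20 in *ets-4(ok165)* did not (limma, adjusted p = 0.956).

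*cnc-4* (R09B5.9) had its largest departure in *ets-4(ok165)*. The log2 ratios were 0.62, −0.01 and 1.96 on *ets-4(uz1)* arrays 1, 2 and 3, and −2.31, −2.47 and −0.40 on the *ets-4(ok165)* arrays. All *ets-4(uz1)* values lay above all *ets-4(ok165)* values, but only the *ets-4(ok165)* arrays lay on 1 side of 0. Neither mean passed, at 0.86 ± 1.01 in *ets-4(uz1)* (limma, adjusted p = 0.381) and −1.72 ± 1.15 in *ets-4(ok165)* (limma, adjusted p = 0.482; SD, n = 3 each).

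*cnc-3* (R09B5.8) had log2 ratios of 0.58, 1.20 and 2.01 in *ets-4(uz1)*, against −0.18, 0.36 and −0.01 in *ets-4(ok165)*. It was above wild type on every *ets-4(uz1)* array and close to it in *ets-4(ok165)*. The *ets-4(uz1)* mean of 1.26 ± 0.72 missed the threshold (limma, adjusted p = 0.0538), and the *ets-4(ok165)* mean was 0.06 ± 0.28 (limma, adjusted p = 0.971; SD, n = 3 each).

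*cnc-5* (R09B5.10) was the tested member with a negative mean in *ets-4(uz1)*. Its log2 ratios were −0.67, −0.39 and −0.64 in *ets-4(uz1)*, against −0.12, −0.01 and −0.04 in *ets-4(ok165)*. The means were −0.57 ± 0.15 in *ets-4(uz1)* (limma, adjusted p = 0.0889) and −0.06 ± 0.06 in *ets-4(ok165)* (limma, adjusted p = 0.940; SD, n = 3 each). *cnc-8* (F41E7.8), the member on the X chromosome, ranged between 0.14 and 1.14 in *ets-4(uz1)* and between −0.07 and 0.83 in *ets-4(ok165)*, with array 2 the highest of each strain (limma, adjusted p = 0.339 for *ets-4(uz1)* and 0.819 for *ets-4(ok165)*).

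The remaining 2 members were dim. *cnc-6* (Y46E12A.1, chromosome III) had log2 ratios of 3.31, 0.50 and 0.16 in *ets-4(uz1)* and 2.94, 0 and 0 in *ets-4(ok165)*, so that array number 1 alone carried a large ratio in each strain. The mutant signal exceeded background clearly on 2 of the 3 *ets-4(uz1)* arrays and on 1 of the 3 *ets-4(ok165)* arrays, and the wild-type signal on the first *ets-4(ok165)* array alone. Its mean mutant signal over the 3 *ets-4(uz1)* arrays was 1.37-fold above the lowest wild-type-channel signals that were well above background, after alignment of the arrays. The mean log2 ratio of 1.33 in *ets-4(uz1)* did not pass (limma, adjusted p = 0.379). It was 0.33 without *ets-4(uz1)* array 1 and 0.29 with normexp and loess. *cnc-1* (R09B5.2) was not well above background in either channel on any array, and no fold is given.

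The wild-type channel moved with the array number for the same genes. The wild-type signal of *cnc-2* was 652, 401 and 169 intensity units on *ets-4(uz1)* arrays 1, 2 and 3, and 485, 304 and 94.2 units on *ets-4(ok165)* arrays 1, 2 and 3. The mutant signal of the same probe was 2419, 2466 and 3330 units in *ets-4(uz1)* and 130, 59.6 and 65.6 units in *ets-4(ok165)*. The wild-type level was thus lowest on the number 3 arrays of both strains, where the ratios were highest, while the *ets-4(uz1)* signal stayed within a narrower range. After alignment of the arrays (Aquantile), the 6 wild-type values of *cnc-2* spanned 2.64 on the log2 scale, the *ets-4(uz1)* values 0.39 and the *ets-4(ok165)* values 1.1. Over all tested genes the median wild-type span was 0.89, and 6.72% of the genes spanned more than 2.

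**Figure D2:**
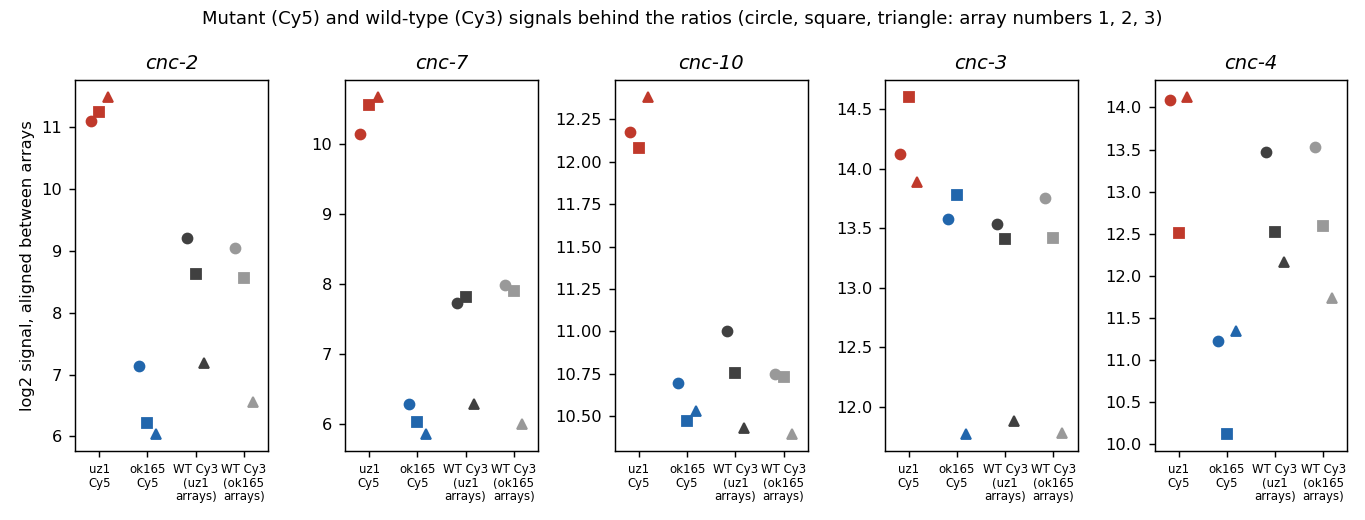
Log2 signal after alignment between arrays for *cnc-2*, *cnc-7*, *cnc-10*, *cnc-3* and *cnc-4*, each panel on its own axis, with the mutant Cy5 signal of *ets-4(uz1)* (red) and *ets-4(ok165)* (blue) left of the wild-type Cy3 signal on the arrays of each strain (dark and light gray). The wild-type points of number 3 (triangles) are the lowest of their column in all 5 panels, and the *ets-4(uz1)* points of *cnc-2*, *cnc-7* and *cnc-10* lie above all others.

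*cnc-7* and *cnc-3* had aligned wild-type spans of 1.98 and 1.97, and that of *cnc-4* was 1.79. For these 4 genes the mean wild-type level on the number 3 arrays was below that on the number 1 arrays, by 2.25 for *cnc-2*, 1.82 for *cnc-3*, 1.71 for *cnc-7* and 1.55 for *cnc-4* on the log2 scale. A difference of more than 1 in that direction was found for 7.60% of the tested genes. *cnc-10* and *cnc-8* were steadier, with wild-type spans of 0.61 and 0.76, and *cnc-5* moved the other way, with a wild-type level 1.23 lower on the number 1 arrays than on the number 3 arrays.

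Some transcripts of the adult stage also differed between array numbers. The wild-type level of *col-19*, an adult cuticle collagen gene, was lower on the number 1 arrays than on the number 3 arrays by 2.34 on the log2 scale, and that of *col-7* by 3.73. Of the other tested genes of the adult cuticle list, *bli-2* was lower there by 0.13, and *rol-6* and *bli-1* were higher by 0.49 and 0.77. All 4 oocyte markers were lower on the number 1 arrays too, by 1.77 for the yolk receptor gene *rme-2* and 0.80 for *cbd-1*. The summed aligned signal of the 4 oocyte markers ranged between 44581 and 58468 in *ets-4(uz1)*, between 10237 and 67330 in *ets-4(ok165)* and between 17795 and 72482 in wild type. *col-19* itself fell in *ets-4(uz1)*, with a log2 ratio of −3.25 ± 0.31 (SD, n = 3; limma, adjusted p = 0.00747), and was at −0.77 ± 0.99 in *ets-4(ok165)* (limma, adjusted p = 0.618). The part of these differences in the caenacin ratios was not tested.

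The mutant strains were also set against each other. The log2 ratio of *cnc-2* was higher in *ets-4(uz1)* than in *ets-4(ok165)* by 3.79, 4.97 and 4.82 at array numbers 1, 2 and 3, a mean of 4.53 ± 0.64 (SD, n = 3 pairs) or 23.1-fold. That of *cnc-7* was higher by 4.12, 4.62 and 4.54, a mean of 4.43 ± 0.27 or 21.5-fold. These differences varied less between array numbers than the ratios of *ets-4(uz1)* to wild type did. With another background correction (normexp, then loess) the mean difference was 2.80 for *cnc-2* and 2.34 for *cnc-7*, so the folds of both depend on how the dim signals were corrected. *cnc-4* was higher in *ets-4(uz1)* by 2.92, 2.45 and 2.36, a mean of 2.58 ± 0.30 or 5.97-fold. *cnc-10* was higher by 1.23, 1.58 and 1.82, and *cnc-3* by 0.77, 0.83 and 2.02. The values at array number 1 come from 1 slide that held both strains, and those at numbers 2 and 3 each from 1 scan date of both strains. The number 1 arrays were scanned on different dates, and at numbers 2 and 3 the strains were on different slides. Each difference was thus within 1 of these batches and across the other.

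**Figure D3:**
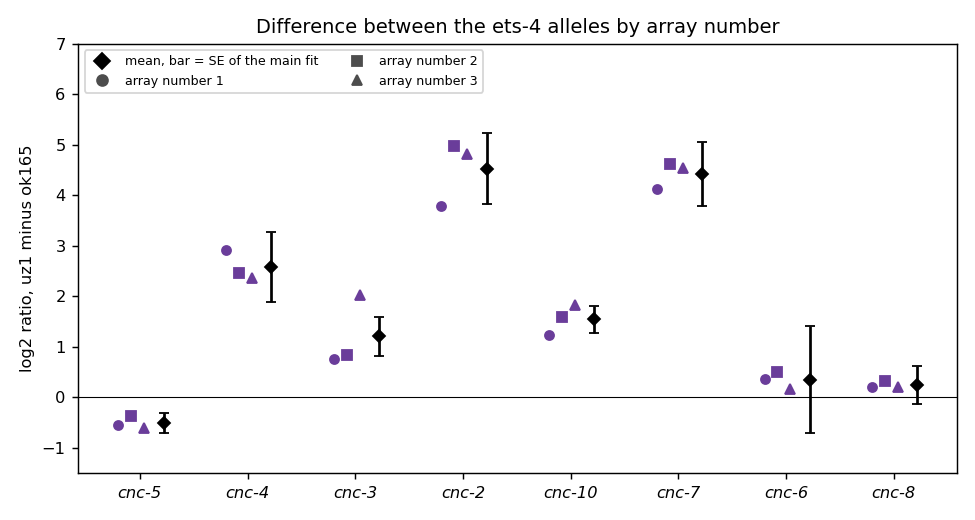
Log2 ratio of *ets-4(uz1)* minus that of *ets-4(ok165)* at each array number (symbols), with the mean and its standard error from the fit without a block (diamond and bar) for the 8 tested members. *cnc-2* and *cnc-7* lay between 3.79 and 4.97 at all 3 array numbers, *cnc-4* between 2.36 and 2.92, and *cnc-5* below 0 at each.

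Without regard to the array number, 0 of the 8 members passed the test of this difference in limma, against 0.163% of all tested genes. The adjusted p was 0.0973 for *cnc-2*, 0.0856 for *cnc-7*, 0.150 for *cnc-10* and 0.400 for *cnc-4*, and 6 of the 8 members had an unadjusted p under 0.05, as had 6.75% of all tested genes. With the array number as a replicate block, *cnc-2*, *cnc-4* and *cnc-7* were higher in *ets-4(uz1)* (limma, adjusted p = 0.0204, 0.0263 and 0.0139), against 0.623% of all genes called. With the scan date as a random block 5 members were higher, *cnc-10* and *cnc-3* being the others, against 3.75% of all genes called. On the log ratios, 5 members had every *ets-4(uz1)* array above every *ets-4(ok165)* array, which held for 6.22% of the genes, and *cnc-5* had every *ets-4(uz1)* array below, which held for 4.5%. Only *cnc-2* and *cnc-7* among the tested members were above 0 on all *ets-4(uz1)* arrays and below 0 on all *ets-4(ok165)* arrays, a pattern of 0.939% of the genes.

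The difference was also present when the mutant channel was taken by itself, a comparison chosen after seeing the data. The aligned Cy5 signal was higher in *ets-4(uz1)* than in *ets-4(ok165)* by 4.81 ± 0.33 for *cnc-2* (SE; limma, adjusted p = 0.00570), 4.41 ± 0.23 for *cnc-7* (adjusted p = 0.00324) and 1.65 ± 0.19 for *cnc-10* (adjusted p = 0.0322) on the log2 scale. That of *cnc-4* was higher by 2.67 ± 0.54 (SE) without passing (limma, adjusted p = 0.203). In this channel 0.298% of all tested genes were called. The *ets-4(ok165)* signals were dim, between 59.6 and 130 units for *cnc-2* and between 51.2 and 80.8 units for *cnc-7*. The sizes for these genes may thus depend on the background correction. The wild-type signal on the *ets-4(uz1)* arrays differed from that on the *ets-4(ok165)* arrays by 0.28 ± 0.76 for *cnc-2*, −0.02 ± 0.65 for *cnc-7* and 0.11 ± 0.25 for *cnc-10* (SE).

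The replicate block also changed the calls against wild type. With it all 8 members passed in *ets-4(uz1)*, 7 higher and *cnc-5* lower, where 15.5% of all genes passed, and *cnc-4* was lower in *ets-4(ok165)* (limma, adjusted p = 0.0248), where 0.332% passed. That fit takes the level shared by both arrays of a number out of the error, including the wild-type variation described above. Its p-values against wild type thus leave out the spread between repeats and come out too small. It called *cnc-6* (limma, adjusted p = 0.00851), whose large ratios were confined to array number 1. By the Rank Products test that the methods name, 4 members were higher in *ets-4(uz1)*, the 3 above and *cnc-3*, against 2.81% of all genes called. By the same test *cnc-2* and *cnc-4* were lower in *ets-4(ok165)*, against 0.715% called, where limma called 0 members and 0.0948% of all genes, and 3 members had an unadjusted p under 0.05, as had 8.14% of all tested genes. Leaving out any 1 of the 3 *ets-4(uz1)* arrays left 0 members called in *ets-4(uz1)*. The adjusted p then lay between 0.0620 and 0.116 for *cnc-2*, *cnc-7* and *cnc-10*, and 0.406 to 0.65% of all genes were called.

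The members also differed by position. By the RefSeq WBcel235 annotation, *cnc-11*, *cnc-1*, *cnc-5*, *cnc-4*, *cnc-3* and *cnc-2* lie next to each other in this order on chromosome V, *cnc-10* and *cnc-7* lie apart from them on the same chromosome, *cnc-6* is on chromosome III and *cnc-8* on X. Along the run the mean log2 ratio in *ets-4(uz1)* was −0.57 for *cnc-5*, 0.86 for *cnc-4*, 1.26 for *cnc-3* and 2.94 for *cnc-2*. In *ets-4(ok165)* it was −0.06, −1.72, 0.06 and −1.59 for the same genes, so that the neighbors *cnc-4* and *cnc-3* departed from wild type by unlike amounts. The nearest measured neighbors of the run did not pass the test in either strain. R09B5.11 was at −0.08 in *ets-4(uz1)*, against −0.31 in *ets-4(ok165)*, and the chitinase-like gene *chil-14* at 0.10 and 0.75 in the same strains. These neighbors were chosen after their place was known to be next to the run, and whether the short, related transcripts cross-hybridize between probes was not tested.

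**Figure D4:**
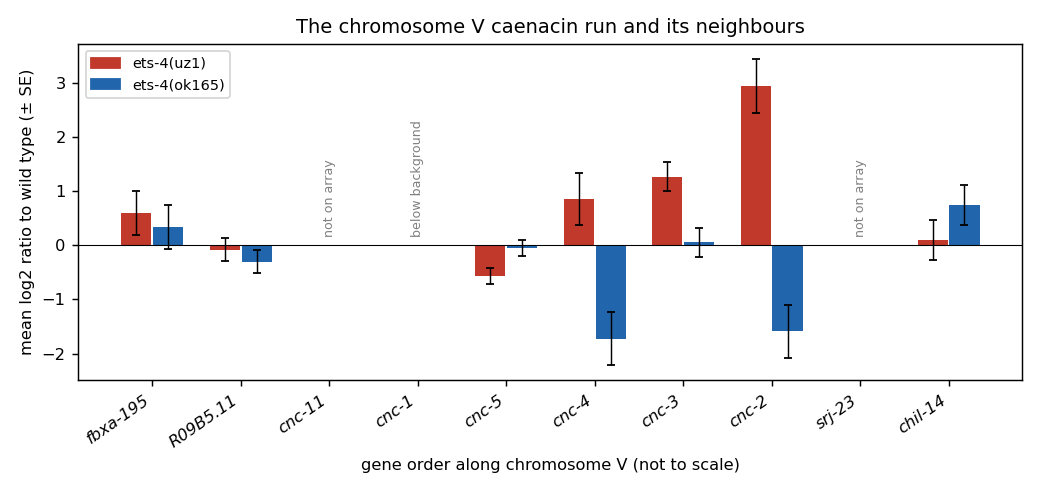
Mean log2 ratio to wild type with its standard error from the fit (n = 3 arrays per strain) for genes in their order on chromosome V, not to scale, *ets-4(uz1)* in red left of *ets-4(ok165)* in blue. Within the run *cnc-2* had the highest mean in *ets-4(uz1)* (2.94) and *cnc-4* the lowest in *ets-4(ok165)* (−1.72), and the flanking genes stayed between −0.31 and 0.75.

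Across the 6 arrays *cnc-2* and *cnc-7* had nearly the same profile (Pearson r = 0.998), and *cnc-10* followed *cnc-2* (r = 0.994), as did *cnc-4* (r = 0.950) and *cnc-3* (r = 0.887). *cnc-5* ran opposite to *cnc-2* (r = −0.880), and *cnc-6* (r = −0.10) and *cnc-8* (r = 0.138) ran apart from it. These correlations describe 6 arrays in 2 strains that share the wild-type variation between array numbers. The mean log2 ratio of the 8 tested members was 1.18, 1.14 and 1.80 on the *ets-4(uz1)* arrays and −0.42, −0.72 and −0.12 on the *ets-4(ok165)* arrays. The genes outside the family whose ratios were most like that mean over the 6 arrays were *pvf-1*, which encodes a growth factor related to PDGF and VEGF (r = 0.993), F48C1.9 (r = 0.990), the ESCRT gene *vps-2* (r = 0.989), the chemoreceptor gene *srd-61* (r = 0.987) and ZK105.5 (r = 0.986). F48C1.9 had log2 ratios of 3.29, 3.41 and 4.40 in *ets-4(uz1)*, against −0.17, −1.79 and 0 in *ets-4(ok165)*, and *pvf-1* had 0.51, 0.62 and 0.74 in *ets-4(uz1)* against −0.09, −0.21 and 0.06 in *ets-4(ok165)*. The 3 genes most like *cnc-2* were *pvf-1* (r = 0.991), F13D12.3 (r = 0.988) and *haf-6*, which encodes an ABC transporter (r = 0.983). *haf-6* was below wild type on every array, at −0.97, −0.61 and −0.15 in *ets-4(uz1)* and −2.45, −2.32 and −2.18 in *ets-4(ok165)*. The genes outside the family were picked for the highest r, which follows any difference between the strains and not the level against wild type.

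The other epidermal peptide genes were measured beside the caenacins. Of the peptide genes around *nlp-29* and their relatives, 8 of 9 were tested, *nlp-29* itself having no probe under its name, and 3 rose in *ets-4(uz1)*, with a median log2 ratio of 1.51. They were *nlp-28* at 2.27 ± 0.09, *nlp-31* at 2.59 ± 0.54 and *nlp-27* at 2.63 ± 0.84 (SD, n = 3; limma, adjusted p = 0.00161, 0.00419 and 0.0142). Of all tested genes 2.2% were called higher in *ets-4(uz1)*. *nlp-24* and *nlp-25* were below wild type there, at −0.31 and −0.32, without passing (limma, adjusted p = 0.335 and 0.627). In *ets-4(ok165)* none of the 8 passed in limma and the Rank Products test called 0, with a median of −0.11. An unadjusted p under 0.05 was found for 1 of them, against 8.14% of all tested genes. The difference between the strains passed for *nlp-28* and *nlp-31*, at 2.08 and 2.84 (limma, adjusted p = 0.0274 and 0.0345), where *cnc-2* and *cnc-7* had larger differences with larger errors. Of 22 tested genes for fungus-induced proteins 4 rose in *ets-4(uz1)*, against the same 2.2% of all tested genes. The median of the 22 genes was 0.12, and the highest was *fip-1* at 2.83 ± 0.21 (SD, n = 3; limma, adjusted p = 8.89e-04). With the replicate block 6 of the *nlp* genes were higher in *ets-4(uz1)*, and of the fungus-induced genes 5 were higher and 7 lower. That fit called 15.5% of all tested genes in *ets-4(uz1)*. In *ets-4(ok165)* 0 fungus-induced genes passed in limma, with or without the block, or in the Rank Products test, and the median was 0.30. Of them 3 had an unadjusted p under 0.05, against 8.14% of all tested genes.

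The genes of the pathways known to drive these peptides under infection were nearer to wild type. Of the DBL-1 pathway 9 of 10 genes were tested, the ligand gene *dbl-1* having no probe under its name. In *ets-4(uz1)* 0 of them passed in limma or the Rank Products test. An unadjusted p under 0.05 was found for 3 of them, against 19.6% of all tested genes. The mean log2 ratios in *ets-4(uz1)* ranged between −0.60 for the SMAD gene *sma-3* and 0.68 for *lon-1*, a CRISP-family gene downstream of the pathway (limma, adjusted p = 0.307 and 0.0900). The receptor gene *sma-6* was at −0.45 ± 0.22 (SE; limma, adjusted p = 0.307). Of 15 tested genes of the epidermal p38 pathway 0 passed in limma in *ets-4(uz1)* and the Rank Products test called 0. Of these 15 genes 3 had an unadjusted p under 0.05, against the same 19.6% of all tested genes. The means lay between −0.68 for *pmk-1* and 0.49 for the kinase-related gene *nipi-4*. In *ets-4(ok165)* 0 genes of either pathway passed in limma or the Rank Products test. An unadjusted p under 0.05 was found there for 0 DBL-1 and 1 p38 pathway gene, against 8.14% of all tested genes. With the replicate block *sma-4* was higher and *sma-3* lower in *ets-4(uz1)* (limma, adjusted p = 0.0489 and 0.0395), and *nipi-4* was higher (limma, adjusted p = 0.0462). The replicate-block fit leaves the spread between repeats out of the error of these values. That fit called 15.5% of all tested genes in *ets-4(uz1)*.

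Some cuticle and molting genes were called in *ets-4(uz1)*, where limma without the block called 3.53% of all tested genes, and 2.2% as higher. Of 6 furrow collagen genes, whose loss is known to switch on epidermal peptide genes, 3 rose in *ets-4(uz1)*, *dpy-8*, *dpy-7* and *dpy-2*, by 1.27, 1.63 and 1.84 on the log2 scale (limma, adjusted p = 0.0312, 0.0320 and 0.0329). Of 7 molting genes 3 rose, *noah-2*, *mlt-11* and *qua-1*, by 1.57, 1.06 and 1.09 (limma, adjusted p = 0.0262, 0.0382 and 0.0451). Of the adult cuticle genes 5 of 6 were tested, and *col-19* alone passed, in the downward direction. With the replicate block 15.5% of all tested genes passed in *ets-4(uz1)*. Of these lists 5 furrow collagen, 4 molting and 1 adult cuticle gene were then higher, and 1 adult cuticle gene was lower. In *ets-4(ok165)* none of the genes of these lists passed in limma or the Rank Products test. An unadjusted p under 0.05 was found there for 3 furrow collagen, 1 molting and 0 adult cuticle genes, against 8.14% of all tested genes. The median log2 ratio in *ets-4(ok165)* was 0.70 for the furrow collagens, 0.28 for the molting genes and 0.35 for the adult cuticle genes. The summed aligned signal of the 7 epidermis markers ranged between 54852 and 110723 in *ets-4(uz1)*, between 23499 and 71682 in *ets-4(ok165)* and between 23136 and 40181 in wild type. The largest part of each sum came from *dpy-7*, which is also 1 of the 3 furrow collagen genes called above. The other epidermis markers had mean log2 ratios between 0.20 and 0.79 in *ets-4(uz1)*, and none of them passed in limma without the block. The part of the stage and of the amount of epidermal RNA in the caenacin ratios was not tested.

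**Figure D5:**
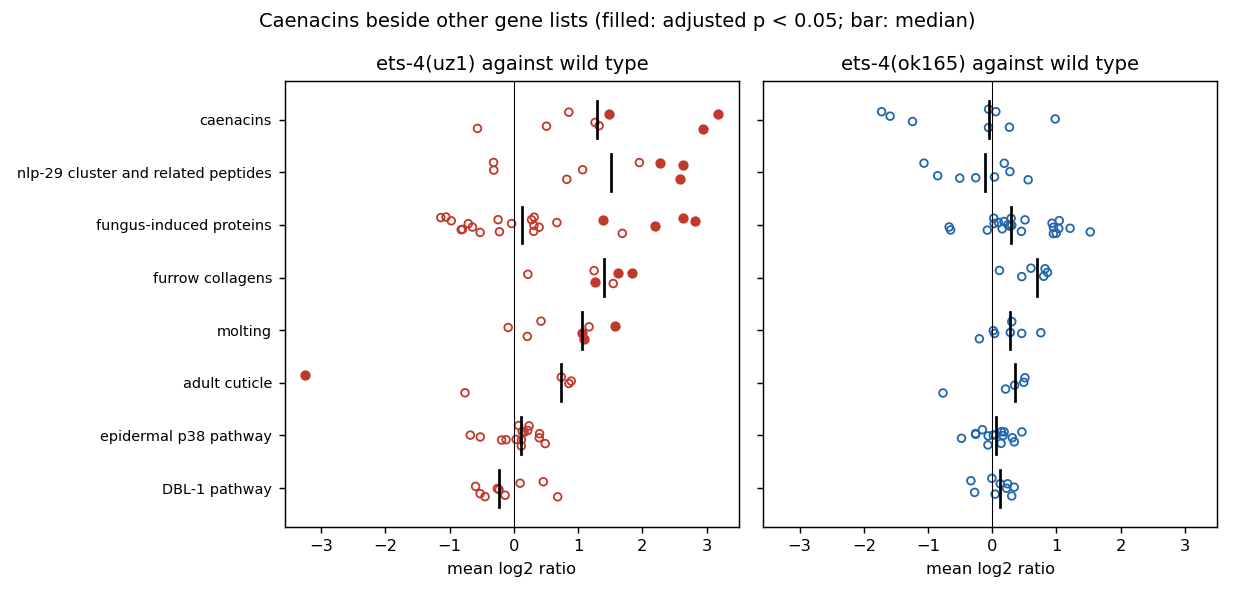
Mean log2 ratio to wild type (n = 3 arrays per strain) for each tested gene of 8 lists, *ets-4(uz1)* left and *ets-4(ok165)* right, with filled points at an adjusted p under 0.05 and a bar at the median of the list. In *ets-4(uz1)* the medians were 1.30 for the caenacins and 1.51 for the *nlp-29* group, and in *ets-4(ok165)* *cnc-4*, *cnc-2* and *cnc-7* were the lowest points of these lists.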

How the data were processed

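RNA of late L4 larvae was measured on 6 Agilent arrays, 3 per mutant strain. The authors made the signal intensity and log10 ratio of each spot with Agilent Feature Extraction (versions 8.5.1.1 and 9.1.3.1 per the file headers), background-subtracted and dye-normalized within each array. The deposited series table holds these ratios as log2 values, and well-above-background and outlier flags came from the deposited files.

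The log10 ratios were converted to log2, control spots and outlier spots were left out, and repeated spots averaged. Probes needed a signal well above background in Cy3 or Cy5 on 3 or more of the 6 arrays, and each gene was represented by its brightest such probe. limma (version 3.58.1, R version 4.3.3) fitted a mean per strain over all arrays, with 4 residual degrees of freedom. It was tested on simulated data. Rank Products, the methods' test, ran with 100 permutations on unfiltered genes at a probability of false prediction under 0.1. Channels were compared after Aquantile alignment. Slide (3) and scan date (4), both from the file headers, were tried as random blocks. Arrays sharing a number correlated in their deviations from the strain mean (r = 0.513, 0.686 and 0.292), and the wild-type deviations correlated at 0.563, 0.749 and 0.869, so the number was used as a replicate block. The labels do not say whether the wild-type extract was shared, and the methods describe independent repeats. The small number of arrays limits precision.

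All 10 members are named, those called or with an absolute mean of at least 1 by every array. At most 3 genes per companion list were taken by smallest p in *ets-4(uz1)*, and further list genes were named after their values were seen. Members and lists were chosen with earlier results of these data known.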

Additional observations from a re-analysis of the deposited data

Results flagged for a closer look

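The log2 ratios of 3 caenacin genes were flagged for their difference between the strains, so the genes were picked from these same values. *cnc-2* was higher in *ets-4(uz1)* than in *ets-4(ok165)* by 4.53 and *cnc-7* by 4.43. Both were above wild type on every *ets-4(uz1)* array and below it on every *ets-4(ok165)* array, a pattern of 0.939% of the genes. On *ets-4(ok165)* array 3 the wild-type signal of *cnc-7* was not well above background. The *ets-4(ok165)* means did not pass against wild type (limma, adjusted p = 0.529 for *cnc-2* and 0.584 for *cnc-7*), and with normexp they were −0.65 and −0.38. *cnc-4* was higher in *ets-4(uz1)* by 2.58. The difference passed for all 3 genes in the fit with the replicate block (limma, adjusted p = 0.0204, 0.0139 and 0.0263 for *cnc-2*, *cnc-7* and *cnc-4*). It passed for none of them in the main fit, without the block (limma, adjusted p = 0.0973, 0.0856 and 0.400). Of all tested genes 0.623% were called with the block and 0.163% without it.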

How the results depend on the processing

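Of 402 values of single members under the alternatives, 361 kept their direction and their side of the threshold. In *ets-4(uz1)* the count of called members was 3, 8 with the replicate block, 0 without a filter on dim probes (where 128 of 18877 genes were called) and 0 to 3 when 1 array was left out. In *ets-4(ok165)* it was 0, 1 with the replicate block and 2 by Rank Products. Against wild type, the replicate block leaves the spread between repeats out of the error. Between the strains the count of called members was 0, 3 with the replicate block, 5 with the scan date as a random block and 3 from the mutant Cy5 signals alone. The last of these alternatives was chosen after seeing the data. All other alternatives, among them normexp, slide block and strict filter, stayed within 1.5 times these counts. Over all alternatives the *ets-4(uz1)* log2 ratio ranged between 2.15 and 3.46 for *cnc-2*, 1.96 and 3.57 for *cnc-7* and 1.25 and 1.64 for *cnc-10*. The difference between the strains ranged between 2.80 and 5.06 for *cnc-2*, 2.34 and 4.97 for *cnc-7* and 2.02 and 3.24 for *cnc-4*, with *cnc-2* and *cnc-7* lowest with normexp. Directions turned only for values that did not pass. In *ets-4(ok165)*, *cnc-3* was at −0.11 with the scan date as a random block and *cnc-5* at 0.0018 with normexp. Leaving out 1 array gave −0.10 to 0.18 for *cnc-3*, −0.012 to 0.44 for *cnc-8* and −0.15 to 0.041 for *cnc-10* in that strain. Between the strains *cnc-6* was at −0.27 with normexp, −1.62 with ratios of 0 missing, and −0.65 to 1.33 when 1 array was left out, and *cnc-8* then at −0.078 to 0.52. The cause was not tested. The dim signals of *cnc-1* and *cnc-6* limit what can be said of them.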
